A study of Homo sapiens with 6 samples.

Results

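The genes described here are the AP-1 transcription factor genes of the FOS class (FOS, FOSB, FOSL1 and FOSL2) and of the JUN class (JUN, JUNB and JUND), together with the zinc finger genes EGR1, EGR2 and EGR3. They were taken by gene name, and all 10 were found among the 58735 genes of the deposited table. Their RNA was sequenced from cells labelled SKM-1, the name of an established human acute myeloid leukaemia line. The 2 groups were cells treated for 48 h with celastrol, a triterpenoid of the thunder god vine (3 libraries), and cells given DMSO, its solvent (3 libraries). No dose is stated in the sources used here. Since no source ties the libraries to separate cultures, p-values cover the library-to-library spread, which may be technical.

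AP-1 is a dimer of basic leucine zipper (bZIP) proteins. JUN proteins pair with each other or with FOS proteins, whereas FOS proteins need a JUN partner to bind DNA. EGR proteins bind GC-rich sites and are held in check by the corepressors NAB1 and NAB2. Most of these genes are immediate early genes, switched on within minutes of a growth factor or stress signal through MAP kinases, SRF and the ternary complex factors, and usually only briefly. In myeloid cells AP-1 and EGR1 take part in monocyte and macrophage differentiation.

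The deposited values are FPKM, fragments per kilobase of gene and scaled by a library total, so levels can be set side by side between genes. The same length serves all transcripts of a gene, 5553 bases over 13 transcripts for FOSB and 1887 over 5 for FOSL1. The order, sums, ratios and shares of different genes below are therefore approximate. The libraries held 15231742 to 16231066 listed reads with celastrol and 13549187 to 15410904 with DMSO. Of 12685 genes with a mean of at least 1 FPKM, limma-trend called 15.3% higher and 14.2% lower with celastrol (29.5% in either direction) at a Benjamini-Hochberg adjusted p under 0.05. The line expressed the leukocyte genes PTPRC, at 14.8 ± 0.983 FPKM with celastrol and 12.7 ± 1.38 with DMSO, and SPI1, at 22.3 ± 2.23 FPKM with celastrol and 17.9 ± 3.73 with DMSO (mean ± SD over 3 libraries each). Other myeloid markers (MPO, CD14, CD68, CSF1R and CEBPA) stayed below 1 FPKM in every library. The 10 myeloid markers summed to 56.7 to 62.6 FPKM with celastrol and 70.6 to 78.0 with DMSO, with 2 of 5 tested lower (LYZ and ITGAM). Of 11 erythroid markers 10 were tested and 8 were lower. Their summed level lay at 231 to 276 FPKM in celastrol libraries and 423 to 438 in DMSO libraries, with HBB below 1 FPKM throughout. The most abundant was GATA1, at 111 ± 15.0 FPKM with celastrol and 158 ± 3.72 with DMSO. Next were KLF1, at 44.1 ± 7.29 with celastrol and 104 ± 8.03 with DMSO, and HBA2, at 16.4 ± 1.53 and 46.4 ± 4.34. GATA1 and KLF1 thus stood above PTPRC and SPI1 in both groups. Whether the cells match their label was not tested. HBG1 and HBG2 were tested but not called. Mitochondrial genes took 1.37% to 1.85% of listed reads with celastrol and 5.44% to 5.65% with DMSO, and the library total used for FPKM was 1.04 to 1.05 times the listed reads with celastrol and 0.963 to 0.994 times with DMSO. T, B and NK cell markers summed to 15.5 to 15.9 FPKM with celastrol and 8.51 to 10.5 with DMSO, with 2 of 3 tested higher and MS4A1 at 0. Epithelial and stromal markers summed to 21.2 to 23.0 FPKM with celastrol and 36.0 to 40.0 with DMSO, with 1 of 2 tested lower and KRT5, KRT14 and VWF at 0. The lower gene was EPCAM, at 15.6 ± 0.744 FPKM with celastrol and 32.0 ± 1.79 with DMSO. The part of these shifts in the results below was not tested, and in bulk RNA a change in the number of cells of a type cannot be told apart from a change in RNA per cell.

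All 4 FOS-class genes and EGR1 were higher with celastrol, by 1.44-fold to 5.03-fold between group means, and no JUN-class gene passed the test. Of the 10 genes 8 passed the minimum of 1 FPKM and were tested, of which 5 were called higher and 0 lower, where 15.3% of all tested genes were higher. The median log2 fold change of the 8 was 0.62, against 0.02 over all tested genes. FOSB and FOS reached the minimum mean only through their celastrol libraries, since their DMSO libraries lay below 1 FPKM, so that they had to differ to be tested. Of the other 6 tested genes, which averaged at least 1 FPKM in both groups, 3 were higher and 0 lower, with a median of 0.39, where 15.4% of all genes with such means were higher. The 3 celastrol and 3 DMSO values were fully separate for 7 of the 8, all but JUN, where 47.3% of all tested genes showed no overlap. FOS and FOSB are among the 7, and since they had to differ to be tested, their separation adds no support. Among 819 tested genes that the table assigns to a transcription factor family, 10.1% were higher and 15.8% lower. Ranked by log2 fold change in that set, FOSB was at place 1 and FOS at 4, both tested only through their celastrol libraries, with EGR1 at 10, FOSL2 at 13 and FOSL1 at 27, while JUNB was at 131, JUND at 167 and JUN at 731. The set held 29 other bZIP genes, of which 4 were higher and 9 lower.

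**Figure D1:**
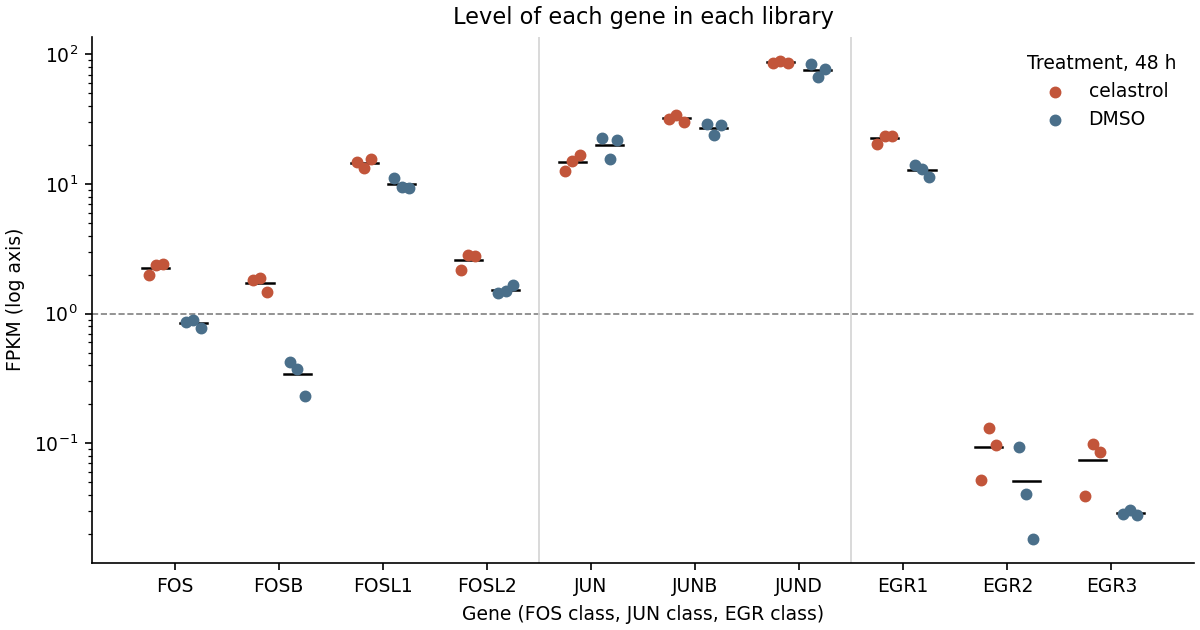
FPKM of each gene (log axis) in each library after 48 h with celastrol (left, red) or DMSO (right, blue); points are libraries, black bars are means of 3, and the dashed line marks the 1 FPKM minimum for testing. Celastrol and DMSO points are separate for the 4 FOS-class genes and EGR1, and overlap for JUN and EGR2.

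FOS, the founding member of its class, had 1.98, 2.38 and 2.41 FPKM in the celastrol libraries, against 0.858, 0.895 and 0.769 FPKM in the DMSO libraries. Every celastrol library was above every DMSO library, at a low level in both. The values rested on 101, 128 and 131 reads with celastrol and 40, 39 and 37 reads with DMSO. On the log2(FPKM + 0.1) scale FOS rose by 1.32 (SE 0.19, adjusted p = 0.00251 by limma-trend). FOS lies on chromosome 14, 75278774 to 75282230 of GRCh38, plus strand, and GENCODE 29 gives its transcripts 2 to 4 exons.

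FOSB, a paralogue of FOS known for its stable short isoform in chronically stimulated neurons, had 1.83, 1.90 and 1.46 FPKM in the celastrol libraries, against 0.425, 0.375 and 0.230 FPKM in the DMSO libraries. The lowest celastrol library had 136 reads and the highest DMSO library 34. This was the largest change of the 8 tested genes, 5.03-fold between means, with a log2 fold change of 2.06 (SE 0.35, adjusted p = 0.00506). With a pseudocount of 1 in place of 0.1 it was 1.02. FOSB (chromosome 19, 45467995 to 45475179, plus strand) lies wholly inside the span of ERCC1, a DNA repair gene on the opposite strand. ERCC1 averaged 15.1 ± 0.424 FPKM with celastrol and 12.7 ± 1.34 with DMSO (adjusted p = 0.0698). No source used here states whether strand was kept, and the part of ERCC1 reads in the FOSB values was not tested.

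FOSL1, which encodes FRA1, a FOS protein without the strong activation domain of FOS, was the most abundant of its class. Its levels were 14.7, 13.2 and 15.5 FPKM with celastrol and 11.2, 9.53 and 9.34 FPKM with DMSO. The celastrol libraries were all higher, by a log2 fold change of 0.53 (SE 0.10, adjusted p = 0.00721). FOSL2, which encodes FRA2, had 2.15, 2.84 and 2.76 FPKM with celastrol and 1.44, 1.48 and 1.66 FPKM with DMSO. It rose by 0.71 (SE 0.16, adjusted p = 0.0134), but did not pass once celastrol replicate 2 (adjusted p = 0.0625) or 3 (adjusted p = 0.0523) was left out. FOSL1 lies on chromosome 11, 65892049 to 65900573, minus strand, and FOSL2 on chromosome 2, 28392448 to 28417312, plus strand.

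EGR1, a zinc finger activator induced by the same signals as FOS, had 20.5, 23.7 and 23.5 FPKM in the celastrol libraries, against 14.1, 12.97 and 11.2 FPKM in the DMSO libraries. The lowest celastrol library was well above the highest DMSO library, and the log2 fold change was 0.82 (SE 0.10, adjusted p = 0.00153), the lowest adjusted p of the 8 tested genes. Its locus is chromosome 5, 138465490 to 138469315, plus strand, with 2 exons. EGR2, needed for myelination, and EGR3, needed for muscle spindles, were close to 0. EGR2 had 3, 8 and 6 reads in the celastrol libraries and 5, 2 and 1 in the DMSO libraries, so its groups overlapped. EGR3 had 3, 8 and 7 reads with celastrol and 2 in each DMSO library. Neither was tested. Fitted with no filter on low values, EGR2 had an adjusted p of 0.546 and EGR3 one of 0.343, and a difference was not detectable at this depth.

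JUN, the main partner of FOS proteins and a target of the kinase JNK, had 12.6, 15.2 and 16.6 FPKM in the celastrol libraries, against 22.5, 15.5 and 21.9 FPKM in the DMSO libraries. DMSO replicate 2 fell within the celastrol range. The log2 fold change was -0.42 (SE 0.16, 95% interval -0.80 to -0.04 before adjustment, adjusted p = 0.0901). JUN passed as lower without DMSO replicate 2 (adjusted p = 0.0150), with limma-voom on recovered reads (0.0141) and with a minimum mean of 5 FPKM (0.0482). Over all 15 alternatives its adjusted p ran from 0.0141 to 0.358, and the estimate stayed below 0 in each.

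JUNB, which can oppose JUN, had 32.0, 34.0 and 30.3 FPKM with celastrol and 28.9, 23.9 and 28.8 FPKM with DMSO. JUND, the JUN gene expressed most steadily in resting cells, had 85.2, 89.5 and 86.5 FPKM with celastrol and 85.1, 67.4 and 76.7 FPKM with DMSO. The celastrol libraries of both genes were above their DMSO libraries by narrow margins. The log2 fold changes were 0.24 for JUNB (95% interval 0.03 to 0.46 before adjustment, adjusted p = 0.0877) and 0.19 for JUND (interval -0.02 to 0.41, adjusted p = 0.149). Both passed as higher after rescaling to TPM (adjusted p = 0.00449 for JUNB and 0.00452 for JUND) and when scaled to listed reads (0.0210 and 0.0310), and JUND also without DMSO replicate 1 (0.0412). Over all tested genes the median log2 fold change was 0.26 on the TPM scale and 0.12 on that of listed reads, against 0.02 as deposited. JUN (chromosome 1, 58780788 to 58784327, minus strand) and JUNB (chromosome 19, 12791496 to 12793315, plus strand) have 1 exon each, and JUND (chromosome 19, 18279760 to 18281622, minus strand) has 1 or 2. JUNB lies inside the span of HOOK2 on the opposite strand, whose mean level was 4.96 ± 0.313 FPKM in celastrol libraries and 4.98 ± 0.365 in DMSO libraries.

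**Figure D2:**
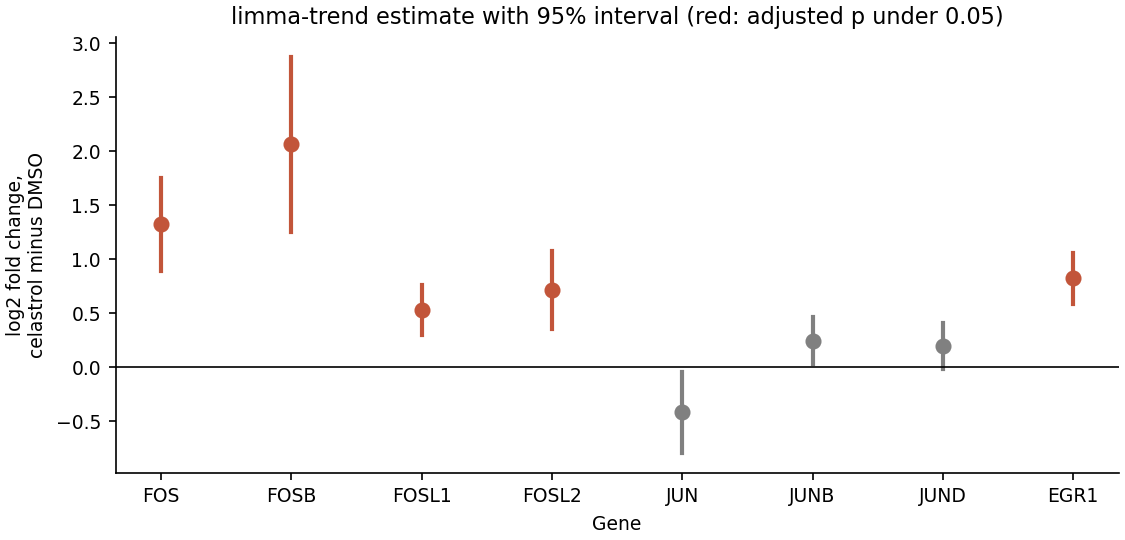
Log2 fold change of the 8 tested genes, celastrol minus DMSO, from limma-trend on log2(FPKM + 0.1); bars are 95% intervals before adjustment for multiple testing, and red marks an adjusted p under 0.05. The 4 FOS-class genes and EGR1 lie above 0, from 0.53 to 2.06, and the 3 JUN-class genes lie between -0.42 and 0.24.

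The order of levels changed in 1 place. With celastrol it ran JUND, JUNB, EGR1, JUN, FOSL1, FOSL2, FOS and FOSB, then EGR2 and EGR3. With DMSO JUN stood above EGR1. In the celastrol libraries the ranges of JUN and FOSL1 overlapped, as did those of FOSL2 and FOS and those of EGR2 and EGR3. In the DMSO libraries the ranges of EGR2 and EGR3 were the only neighbours to overlap.

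Ratios within a library do not depend on the scaling between libraries. The FOS class summed to 20.7, 20.4 and 22.1 FPKM in the celastrol libraries and 13.9, 12.3 and 12.0 FPKM in the DMSO libraries. The JUN class summed to 130, 139 and 133 FPKM with celastrol and 137, 107 and 127 FPKM with DMSO. JUN-class RNA thus exceeded FOS-class RNA by 6.37 ± 0.398 times with celastrol and by 9.70 ± 0.959 times with DMSO (mean ± SD, 3 libraries each). EGR1 stood at 1.63, 1.56 and 1.41 times the level of JUN with celastrol and at 0.623, 0.839 and 0.514 times with DMSO. The ratio of JUNB to JUN was 2.55, 2.24 and 1.82 with celastrol and 1.28, 1.54 and 1.32 with DMSO. Of 4 ratios to JUN compared, those of FOS, FOSL1, JUNB and EGR1, none overlapped between treatments. Each gave p = 0.1 in an exact two-sided permutation test, which cannot go lower with 3 libraries a group, and 0.1 after adjustment over the 4. The ratios were chosen after the values were seen. All 4 numerators were separate between treatments on their own with positive log2 fold changes, while JUN, the shared denominator, was at -0.42. FOS also met the minimum for testing only through its celastrol libraries. The lack of overlap and the p-values were thus largely set by the choice and add no support. How often ratios of other gene pairs separate was not tested, and 47.3% of all tested genes separated singly.

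Within the FOS class FOSL1 made up 68.8 ± 3.28% of the summed level with celastrol and 78.6 ± 1.62% with DMSO. FOSB made up 8.25 ± 1.46% with celastrol and 2.67 ± 0.654% with DMSO, and FOS 10.7 ± 1.07% with celastrol and 6.61 ± 0.595% with DMSO. The share of FOSL2 was 12.3 ± 1.78% with celastrol and 12.1 ± 1.78% with DMSO. In the JUN class JUND held 65.0 ± 0.570% with celastrol and 61.9 ± 1.501% with DMSO, JUNB 24.0 ± 1.08% with celastrol and 22.03 ± 0.782% with DMSO, and JUN 11.03 ± 1.39% with celastrol and 16.1 ± 1.40% with DMSO (mean ± SD of 3 libraries).

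**Figure D3:**
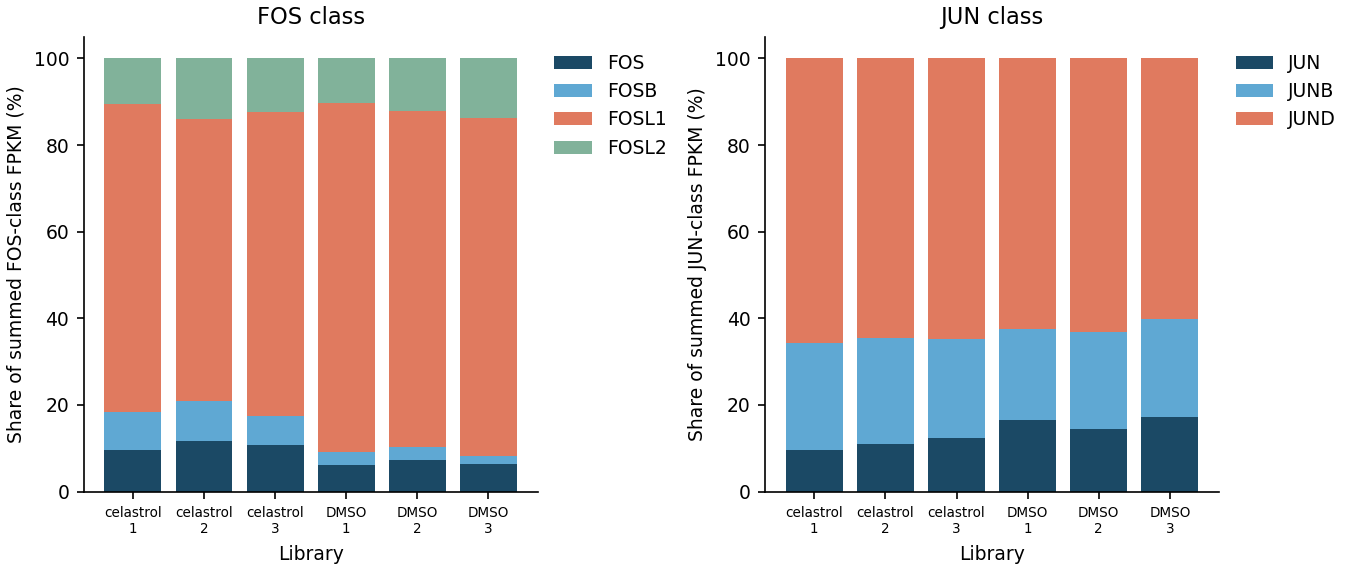
Share (%) of each gene in the summed FPKM of the FOS class (left) and of the JUN class (right) in each of the 3 celastrol and 3 DMSO libraries. FOSL1 is the largest block of its class in every library at 65.0% to 80.5%, and the FOS and FOSB blocks together are larger in the celastrol libraries.

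The promoters of 4 of the 5 genes called higher are shown because such promoters are the textbook sites of the immediate early response. RefSeq windows of GRCh38.p14, 250 bases before to 50 after the start site, were matched for 8 of the 10 genes. FOSL1, which was also called higher, and EGR3 had no window. Both strands were searched for 5 motifs: the AP-1 site TGANTCA, the CRE TGACGTCA, the EGR site GCGNGGGCG, the CArG box (core of the serum response element, bound by SRF) and TATAAA. The printed stretches run from 250 bases before the start site to the start site, and for FOSL2 on to base 20 of the transcript, with matches in capitals.
EGR1, chr5:138465229-138465478, plus strand: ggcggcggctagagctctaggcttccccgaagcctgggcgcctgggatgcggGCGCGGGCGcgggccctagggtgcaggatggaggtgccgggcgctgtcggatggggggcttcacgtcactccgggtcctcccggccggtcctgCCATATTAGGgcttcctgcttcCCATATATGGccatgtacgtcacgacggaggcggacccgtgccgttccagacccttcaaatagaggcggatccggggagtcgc
FOS, chr14:75278578-75278827, plus strand: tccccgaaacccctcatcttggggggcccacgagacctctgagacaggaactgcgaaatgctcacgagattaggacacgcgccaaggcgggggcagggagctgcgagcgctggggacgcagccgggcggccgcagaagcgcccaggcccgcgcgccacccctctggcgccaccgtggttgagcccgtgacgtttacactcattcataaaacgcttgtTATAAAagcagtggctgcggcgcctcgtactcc
FOSB, chr19:45467746-45467995, plus strand: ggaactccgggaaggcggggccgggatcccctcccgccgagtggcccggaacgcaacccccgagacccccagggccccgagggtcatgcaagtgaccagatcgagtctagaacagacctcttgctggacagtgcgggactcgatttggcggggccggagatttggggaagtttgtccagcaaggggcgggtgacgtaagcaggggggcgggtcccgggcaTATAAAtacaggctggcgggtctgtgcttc
FOSL2, chr2:28392608-28392877, plus strand: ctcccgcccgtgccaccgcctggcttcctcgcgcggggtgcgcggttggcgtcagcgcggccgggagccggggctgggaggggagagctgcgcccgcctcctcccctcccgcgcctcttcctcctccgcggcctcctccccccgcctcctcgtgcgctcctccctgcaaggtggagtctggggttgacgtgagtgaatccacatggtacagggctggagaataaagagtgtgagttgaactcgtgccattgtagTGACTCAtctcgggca

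EGR1 held 2 CArG boxes, at -105 and -83 from the start site, and 1 EGR site at -198, none of them overlapping. CArG boxes occurred in 1.29% and EGR sites in 9.43% of all 35116 windows of the table. FOS and FOSB each held TATAAA, with its first base at -33 and -30, as did JUNB at -31, against 11.5% of all windows. FOSL2 held TGACTCA with its first base at position 5 of the transcript, a match to the AP-1 site, which 7.71% of windows carry. The JUND window had 1 CRE at -200 (1.85% of windows) and the JUN window no exact match. Sites that differ from the 5 strings were not counted, such as tgacatca in the JUN window and tgacgttt in the FOS window. EGR2 has 3 windows, with 1 EGR site and 1 CArG box among them. The 4 windows shown had no exact match of the 5 in common. Bases more than 250 before the start site were not searched, so an element there would be missed.

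Immediate early mRNAs are often unstable through AU-rich elements in the 3' UTR. The pentamer ATTTA was counted in the 3' UTR of the GENCODE 29 transcript with the longest coding sequence. FOS had 5 in 806 bases, or 6.20 per kilobase, more than 94.5% of 9326 tested coding genes, whose median was 1.65. JUNB had 2 in 500 bases and JUN 2.33 per kilobase. FOSL2 had 1.85, EGR2 1.65, FOSL1 1.502, JUND 1.47, FOSB 1.39, EGR3 1.07 and EGR1 0.810 per kilobase.

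Genes that pair with, feed or follow the FOS, JUN and EGR genes were read from 9 lists, chosen with earlier results of these data known. Among other AP-1 bZIP genes 7 of 14 were tested, with 1 higher (14.3%) and 3 lower (42.9%), against 15.3% and 14.2% of all tested genes, and a median log2 fold change of -0.28. ATF7 (log2 fold change -0.72, adjusted p = 0.00397), a CRE-binding relative of ATF2, ATF3 (log2 fold change -0.55, adjusted p = 0.00220), a stress-induced bZIP factor, and MAFG (log2 fold change -0.45, adjusted p = 0.00398), a small MAF protein, were lower with celastrol. BATF2, a BATF relative induced by interferon and named after its values were seen, was the 1 gene higher (0.33, adjusted p = 0.0394). It did not pass in 7 of its 14 alternatives: with no filter, with limma-voom, or without celastrol replicate 2 or 3 or any 1 DMSO replicate (highest adjusted p = 0.125). ATF2 was at -0.12 (adjusted p = 0.410) and turned to 0.13 under TPM. JDP2, a bZIP repressor of AP-1 named after its values were seen, had 0.295, 0.261 and 0.315 FPKM with celastrol and 1.86, 1.33 and 1.38 FPKM with DMSO, and its mean was below the minimum for testing.

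NAB2, the corepressor that EGR proteins induce against themselves, had 19.8, 22.4 and 26.0 FPKM in the celastrol libraries, against 11.6, 10.2 and 11.8 FPKM in the DMSO libraries. It rose by 1.01 (SE 0.11, adjusted p = 0.000930), while its relative NAB1, named after its values were seen, was not called (adjusted p = 0.971). WT1, a zinc finger gene that shares EGR sites, was at 0.25 (adjusted p = 0.0739) and passed without DMSO replicate 1, on listed reads and under TPM. EGR4 had at most 0.0533 FPKM in a library. Of 8 genes for SRF, its MRTF cofactors, ternary complex factors and related activators, 1 was called: ELK3, a ternary complex factor, averaged 5.31 ± 0.0737 FPKM with celastrol and 2.69 ± 0.449 with DMSO (log2 fold change 0.97, adjusted p = 0.00170). SRF itself was at -0.08 (adjusted p = 0.545), which turned to 0.16 on the TPM scale, 0.016 on listed reads and 0.010 without DMSO replicate 1. ELK1 was at 0.21 (adjusted p = 0.0770). Under TPM, which called 5266 of all 12685 tested genes higher and 813 lower, 6 of these 8 genes passed.

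Of 23 tested MAP kinases and upstream or downstream kinases, 4 were higher and 3 lower, with a median of 0.05. These 7 made up 30.4% of the list, close to the 29.5% called over all tested genes. MAPK13, a p38 kinase, had 1.05, 2.01 and 2.89 FPKM with celastrol and 0.425, 0.341 and 0.299 FPKM with DMSO (log2 fold change 2.10, adjusted p = 0.00931), but did not pass once celastrol replicate 3 was left out (adjusted p = 0.0516). It reached the minimum mean only through its celastrol libraries, and without it 3 of 22 kinases were higher. MAP3K11, an activator of JNK, rose by 0.57 (adjusted p = 0.00922). MAP3K4 was lower at -0.49 (adjusted p = 0.00763), a call lost under TPM. MAP2K2, which encodes MEK2, was at -0.16 (adjusted p = 0.179) and turned to 0.08 under TPM. Of 5 tested MAP kinase phosphatases, which switch these kinases off, DUSP1 and DUSP16 were lower, at -0.53 (adjusted p = 0.00471) and -0.41 (adjusted p = 0.0103). DUSP16 lost its call under TPM and without DMSO replicate 3. DUSP5 was higher at 0.75 (adjusted p = 0.0239), a call lost with no filter on low values and without celastrol replicate 2, celastrol replicate 3 or DMSO replicate 1. DUSP10 was at 0.11 (adjusted p = 0.321). The 3 called phosphatases made up 60.0% of the 5 tested, where 29.5% of all tested genes were called. Of 10 tested genes that modify or turn over JUN and FOS proteins 0 were called by limma-trend and 1 by limma-voom, and 4 had an unadjusted p under 0.05. On other settings limma-trend called 5 under TPM, 2 on listed reads, 1 with quantile normalization and 1 without DMSO replicate 1. Over all 12685 tested genes TPM called 5266 higher and 813 lower. The most abundant were NACA at -0.20 (adjusted p = 0.0709), which turned to 0.036 under TPM, and GSK3A at 0.21 (adjusted p = 0.0837).

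**Figure D4:**
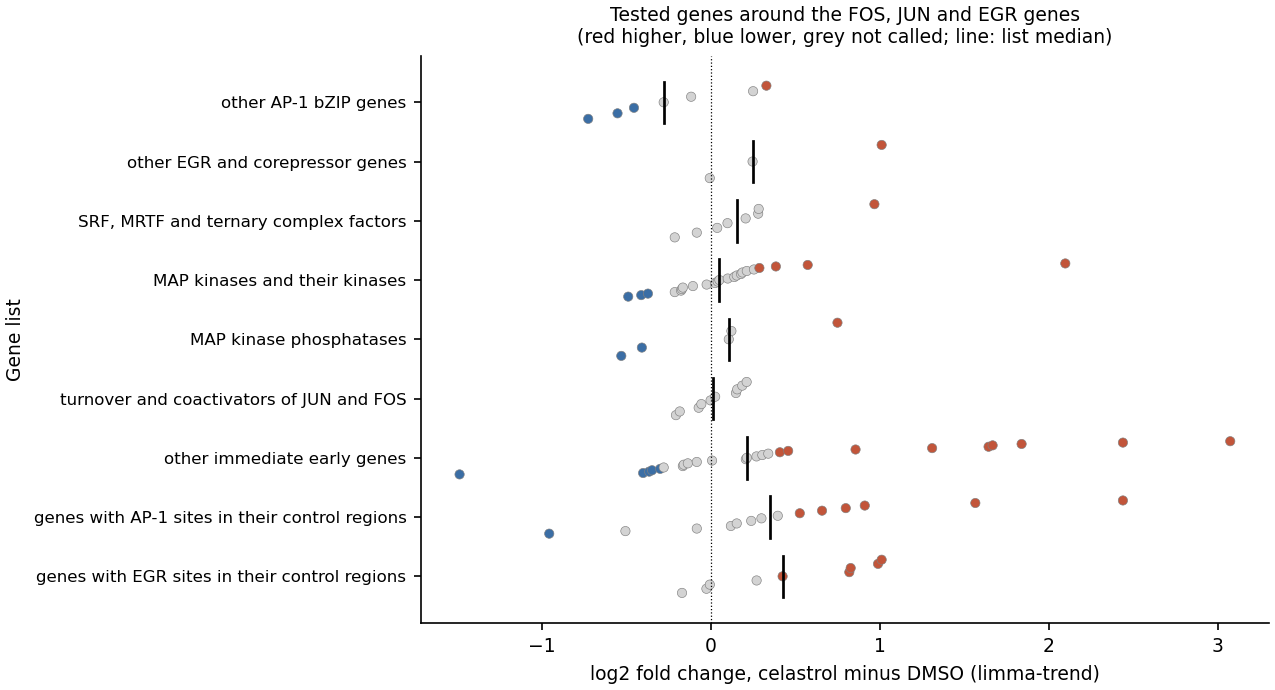
Log2 fold change, celastrol minus DMSO, of every tested gene in 9 lists around the FOS, JUN and EGR genes; red points were called higher, blue lower and grey not called, and black lines are list medians. List medians run from -0.28 for other AP-1 bZIP genes to 0.43 for genes with EGR sites.

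Of 25 tested other immediate early genes 9 were higher (36.0%) and 5 lower, with a median of 0.21. Of the 25, HBEGF, SGK1 and PHLDA1 were tested only through their celastrol libraries. Without them 6 of 22 were higher (27.3%) and 5 lower (22.7%), with a median of 0.11. Among all genes averaging at least 1 FPKM in both groups 15.4% were higher and 14.2% lower. The largest increases were in GADD45B (3.07), a stress-inducible growth arrest gene, HBEGF (2.44), an EGF receptor ligand, and RHOB (1.84), a small GTPase. HBEGF averaged 1.97 ± 0.331 FPKM with celastrol and 0.279 ± 0.0302 with DMSO (adjusted p = 0.00208). IER3, IER5 and SGK1 also rose and TNFAIP3, an inhibitor of NF-kappaB, was lower at -1.48 (adjusted p = 0.000116); these 4 are named after their values were seen. IER3 had 28.9, 39.8 and 48.8 FPKM with celastrol and 12.1, 11.7 and 12.2 FPKM with DMSO. The most abundant genes of the list were GADD45A at -0.13 (adjusted p = 0.308), which turned to 0.11 under TPM, and PPP1R15A at -0.36 (adjusted p = 0.0455). PPP1R15A lost its call under 8 alternatives, the replicate block among them (adjusted p = 0.0508). Without celastrol replicate 2 there were 9 called genes in this list and without DMSO replicate 3 there were 8, against 14 with all libraries.

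Of 14 tested genes listed for AP-1 sites in their control regions 6 were higher (42.9%) and 1 lower (7.14%), with a median of 0.35. FOSL1 itself was among the 6. Over all tested genes 15.3% were higher and 14.2% lower. Without HBEGF, tested only through its celastrol libraries, 5 of 13 were higher and 1 lower. This list and the EGR-site list were set by gene name. Apart from the promoter windows above, their genes were not searched for sites. PLAU, urokinase, was lower at -0.95 (adjusted p = 0.000361). The collagenase and stromelysin genes MMP1, MMP3 and MMP10, classical AP-1 targets of fibroblasts, were near or at 0. The most abundant, GSTP1 and VIM, were at 0.12 (adjusted p = 0.390) and 0.15 (adjusted p = 0.235), and both passed as higher under TPM. Of 9 tested genes listed for EGR sites 5 were higher (55.6%) and 0 lower, with a median of 0.43. The shares over all tested genes were again 15.3% and 14.2%. EGR1 and NAB2 were among the 5. EGR1, EGR2 and EGR3 are themselves on the list, and EGR1 was tested, so this count partly restates its rise. PDGFA, a growth factor chain, rose by 0.99 (adjusted p = 0.00498), ID3, an inhibitor of helix-loop-helix factors, by 0.83 (adjusted p = 0.00261), and TGFB1 by 0.43 (adjusted p = 0.0112). Apart from the 10 genes, 6 genes stood on more than 1 list.

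The genes most like FOSB over the 6 libraries, by the mean absolute difference of centred log2 values among 10071 protein-coding genes, were RIN1 (0.196), RHOB (0.225), TMEM158 (0.231), EGLN3 (0.239) and SGK1 (0.245). Their log2 fold changes ran from 1.64 for SGK1 to 2.34 for TMEM158, and RIN1, EGLN3 and SGK1 averaged below 1 FPKM with DMSO. Those most like JUND were TMEM8A (0.0121), SEPT9 (0.0166), KDM5C (0.0187), RGS14 (0.0197) and AES (0.0200), with log2 fold changes from 0.17 for TMEM8A to 0.23 for RGS14. The likeness describes 6 libraries that share their treatments.

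**Figure D5:**
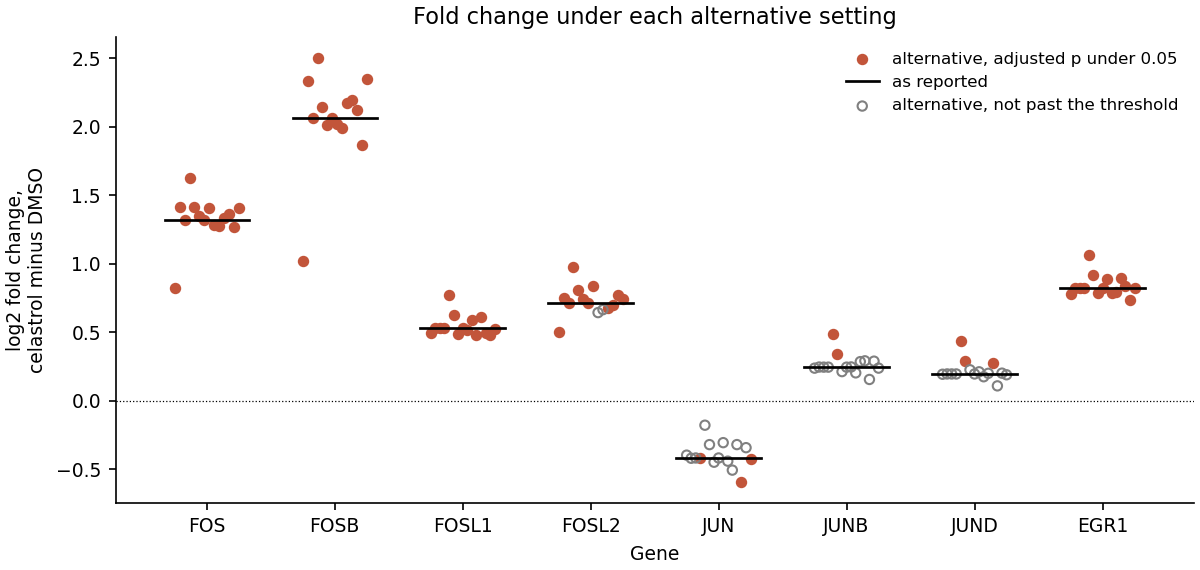
Log2 fold change of the 8 tested genes, celastrol minus DMSO, as reported (black line) and under each alternative setting (points); filled red points passed an adjusted p of 0.05 and open points did not. FOS, FOSB, FOSL1 and EGR1 passed in every alternative that tested them, JUN stayed below 0, and JUNB and JUND stayed above 0.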

How the data were processed

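RNA of 6 libraries labelled SKM-1 (3 celastrol, 3 DMSO, 48 h each) was sequenced, and the authors deposited FPKM values for 58735 genes. HISAT2 2.0.5, featureCounts 1.5.0-p3 and the build GRCh38 (hg38) are named, per the submitters' processing notes, and no source used here states whether strand was used. Every deposited FPKM value gave a whole number of reads within 0.001 after removing gene length and library total, and the recovered reads served for depth and 1 alternative. All gene IDs matched GENCODE 29, which gave exons and 3' UTRs. Genes with a mean of at least 1 FPKM over the 6 libraries were tested on log2(FPKM + 0.1) with limma-trend (limma 3.58.1, R 4.3.3), with Benjamini-Hochberg adjustment over all 12685 genes and a threshold of 0.05. Fold changes on this scale understate those of low genes. Alternatives were pseudocounts of 0.01 and 1, no filter, a minimum of 5 FPKM, TPM, scaling to listed reads, quantile normalization, limma-voom with TMM on recovered reads, a replicate block, and leaving out each library.

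Tested on simulated data with 12685 genes, limma-trend called 38 of 90 genes changed 1.41-fold, 98 of 110 changed 2-fold and 4 of 12485 unchanged. The simulated counts had the same dispersion for every gene, few changed genes and no shift in mitochondrial share or library total. These rates need not hold in the real data, where 29.5% of genes were called. Replicates were distinct libraries, with a chi-square per gene of 4.01 to 13.4 within groups and 49.3 to 77.7 between them. The named genes of each list were the called genes with the 3 largest changes and the 2 of highest mean; others are marked as named after their values were seen, and 2 genes that the rule names are not reported here. The genes and lists were chosen with earlier results of these data known.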

Additional observations from a re-analysis of the deposited data

How the results depend on the processing

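FOS, FOSB, FOSL1 and EGR1 passed as higher in every alternative that tested them, with log2 fold changes of 0.82 to 1.63, 1.02 to 2.50, 0.48 to 0.77 and 0.73 to 1.07. With a minimum of 5 FPKM, where FOS, FOSB, FOSL2, EGR2 and EGR3 were not tested, 2 of the 10 genes were higher (FOSL1 and EGR1) and 1 lower. JUN was that gene, at -0.42, and it was also the 1 gene of the 10 called lower with limma-voom, at -0.43. Leaving out single libraries gave 0 to 1 lower, FOSL2 at 0.64 to 0.84, JUN at -0.59 to -0.31 and JUND at 0.11 to 0.28. JUNB passed at 0.49 under TPM and 0.34 on listed reads, and JUND at 0.44 and 0.29.

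Over all genes TPM called 5266 higher and 813 lower, listed reads 3024 higher, and leaving out single libraries 1125 to 1937 higher and 987 to 1767 lower. Without DMSO replicate 3 the counts were 1125 and 987, without celastrol replicate 2 they were 1128 and 1129, and without celastrol replicate 3 1228 were higher. Of called genes 86.6% were higher under TPM and 70.0% on listed reads, against 52.0% as deposited; the cause was not tested.

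Called genes by list were as follows. Counts under TPM are to be read against the 5266 genes higher and 813 lower that TPM called among 12685. As deposited these were 1947 and 1797. Other AP-1 bZIP genes had 2 with a minimum of 5 FPKM. EGR and corepressor genes had 2 under TPM, 2 on listed reads and 1 to 2 with a library left out. SRF and its partners had 0 with a minimum of 5 FPKM, 6 under TPM, 3 on listed reads and 1 to 2 with a library left out. MAP kinases had 12 under TPM and 4 to 9 with a library left out. Turnover genes had 5 under TPM, 2 on listed reads, 1 with quantile normalization, 1 with limma-voom and 0 to 1 with a library left out. Immediate early genes had 8 to 13 with a library left out, and genes with AP-1 sites 11 under TPM. Under TPM ATF2 turned to 0.13, SRF to 0.16, MAP2K2 to 0.077, NACA to 0.036 and GADD45A to 0.11, and SRF was at 0.016 on listed reads and -0.17 to 0.010 with a library left out. The cause was not tested.

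Libraries share replicate numbers across treatments, but same-numbered libraries did not deviate together (r = -0.02, -0.03 and 0.03, other pairs -0.03 to 0.04), nor did each correlate best with its own number. A replicate block gave 1776 higher and 1617 lower genes and changed no call among the 10; of the other genes named by rule only PPP1R15A lost its call (adjusted p = 0.0508). EGR2 and EGR3, at 1 to 8 reads a library, are limited by depth.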
